A study of Caenorhabditis elegans with 3 samples.

Results

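Peaks called for the tagged rcat-1 product that lay inside introns on the autosomes, away from any transcript start, were described. A peak belonged to them when its summit in the pooled list was inside a gene, in no exon of any gene, and outside a window from 1000 bp upstream to 200 bp downstream of every transcript start. Of 11533 pooled peaks, 9803 were autosomal and 1898 of these met the rule (19.4%). The other autosomal peaks comprised 4761 in promoter windows, 1972 in exons and 1172 between genes. The rule used position alone, with no measured strength. Per its label, the pooled list holds peaks and background used as input for the authors' threshold, so its entries are candidates. That threshold kept 12 of the 1898, and most counts below rest on entries that it did not keep.

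The material was whole L4 larvae of Caenorhabditis elegans, of mixed sex per the labels, of the strain OP218, whose genotype is unc-119(ed3) III with the insertion wgIs218. The insertion carries R02D3.7, now named rcat-1, and the label of replicate 3 describes a GFP-FLAG tag at its C terminus. All 3 biological replicates were of this 1 group and shared both the unc-119 mutation and the transgene, so no condition was compared. Replicates 1 and 2 came from the stock centre CGC with a size range of 150 to 350, and replicate 3 came from the laboratory with sonication by microtip. Chromatin immunoprecipitation followed by sequencing of whole animals gives 1 signal over all tissues, so binding in few cells and weak binding in many cannot be told apart. No read counts accompany the lists, and the depth of each replicate is unknown.

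Introns of the nematode are removed from the transcript by splicing, and some hold enhancers or the start of another transcript. They also hold many transposon remnants and short tandem repeats, most of which lie on the arms of the autosomes. rcat-1 encodes a protein with a C2H2-type zinc finger, a fold in which a bound zinc ion shapes a short helix that can read bases in the DNA.

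The sequences round the strongest intronic summits are shown because 9 of the 12 that the authors' thresholded list kept hold the 8-mer CGTAAATC (GATTTACG on the other strand). That 8-mer is known from earlier results on these peaks, so its presence is a description. Shown are chosen examples, and of the thresholded peaks those in let-363 and ZK1058.3 are not printed. Each line below gives the 101 bp centred on a summit from the RefSeq sequence of WBcel235 (the sequence of ce11), 5′ to 3′, with the 8-mer in capitals. The first group holds 1 copy each. In srbc-58, nrde-1, gid-8 and egl-8 the letters GACAC follow the 8-mer, in Y37D8A.2 TACAC follows it, and in F17C11.22 AACAC follows it. All are printed from the minus strand of the chromosome.
srbc-58, chrV:775254-775354: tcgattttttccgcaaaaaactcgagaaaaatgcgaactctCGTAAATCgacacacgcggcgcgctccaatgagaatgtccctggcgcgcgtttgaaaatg
nrde-1, chrIII:3716378-3716478: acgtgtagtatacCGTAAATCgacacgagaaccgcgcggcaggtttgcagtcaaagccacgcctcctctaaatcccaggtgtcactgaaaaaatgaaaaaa
egl-8, chrV:24309-24409: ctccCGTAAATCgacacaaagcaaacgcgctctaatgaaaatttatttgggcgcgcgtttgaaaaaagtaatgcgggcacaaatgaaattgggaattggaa
gid-8, chrV:1470629-1470729: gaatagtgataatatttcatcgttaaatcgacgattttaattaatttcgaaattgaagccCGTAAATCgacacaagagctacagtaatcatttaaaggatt
Y37D8A.2, chrIII:12821482-12821582: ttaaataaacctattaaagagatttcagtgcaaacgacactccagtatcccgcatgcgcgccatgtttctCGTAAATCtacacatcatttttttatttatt
F17C11.22, chrV:10969109-10969209: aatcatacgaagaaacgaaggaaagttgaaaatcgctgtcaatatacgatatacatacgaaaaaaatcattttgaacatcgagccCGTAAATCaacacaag

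The second group shows the 8-mer repeated in tandem on 1 strand, again printed from the minus strand. In the 301 bp centred on the summit plx-1 held 9 copies, cdh-1 12 and R148.3 8. Neighbouring copies in the 3 arrays lay a median of 22, 22 and 21 bp apart.
plx-1, chrIV:967453-967553: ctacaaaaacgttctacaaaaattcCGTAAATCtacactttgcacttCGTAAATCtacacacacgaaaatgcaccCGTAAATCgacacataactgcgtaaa
cdh-1, chrIII:2926425-2926525: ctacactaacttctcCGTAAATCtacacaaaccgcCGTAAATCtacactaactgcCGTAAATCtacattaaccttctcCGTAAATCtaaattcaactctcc
R148.3, chrIII:3177411-3177511: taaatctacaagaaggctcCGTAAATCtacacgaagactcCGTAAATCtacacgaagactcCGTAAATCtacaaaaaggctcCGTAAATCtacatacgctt

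The third group belongs to dispersed repeats, shown because their windows share long identical stretches although they lie on separate chromosomes or far apart. The windows of W08E12.8 and ZC404.15 had 29 bases in common on the same strand. The window of unc-60, which lacks the 8-mer, shared 39 bases with ZC404.15 and 38 with W08E12.8 on opposite strands. All 4 windows hold the 8-mer CTACAGTA, chosen for description after the sequences were seen. Y49E10.18 is printed from the minus strand and the others from the plus strand.
W08E12.8, chrIV:3293932-3294032: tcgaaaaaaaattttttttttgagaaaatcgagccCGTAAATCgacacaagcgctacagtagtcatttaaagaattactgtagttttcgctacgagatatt
ZC404.15, chrV:6782459-6782559: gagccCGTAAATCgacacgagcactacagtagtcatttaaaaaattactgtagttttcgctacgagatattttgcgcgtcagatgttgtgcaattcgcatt
Y49E10.18, chrIII:12444501-12444601: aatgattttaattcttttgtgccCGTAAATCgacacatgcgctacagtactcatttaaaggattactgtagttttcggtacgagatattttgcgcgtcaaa
unc-60, chrV:1476961-1477061: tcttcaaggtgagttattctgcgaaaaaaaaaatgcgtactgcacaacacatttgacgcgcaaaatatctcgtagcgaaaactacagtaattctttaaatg

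The last group shows 2 thresholded peaks whose 101 bp hold no copy of the 8-mer, printed from the plus strand.
lips-10, chrII:8441666-8441766: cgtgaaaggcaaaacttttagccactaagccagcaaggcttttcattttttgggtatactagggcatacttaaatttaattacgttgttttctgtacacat
nhr-46, chrIV:5753957-5754057: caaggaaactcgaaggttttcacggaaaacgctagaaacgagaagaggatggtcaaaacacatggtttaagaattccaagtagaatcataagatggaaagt

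Intronic peaks were numerous and mostly weak. Their signal, the strength that the authors' caller gave each peak, had a median of 12.4, quartiles of 11.2 and 14.8 and a highest value of 214. The median was 12.7 for intergenic, 12.6 for exonic and 13.8 for promoter peaks. The median width was 430 bp. Intronic sequence outside promoter windows amounted to 21.4 Mb, 26% of the autosomes, and it held 88.5 peaks per Mb. Intergenic sequence outside promoter windows held 83.5 per Mb, exonic sequence 108 and promoter windows 165, which puts the density in introns at 1.06 times that between genes. The ratio was 1.01 with piRNA genes counted and 0.978 among the stronger 50% of the pooled peaks, so its direction depends on how many peaks are taken.

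The intronic share of autosomal peaks grew down the list. It was 3.66% of the peaks at ranks 1 to 390, 10.5% at ranks 391 to 1000, 13.6% at ranks 1001 to 2000, 18.6% at ranks 2001 to 5000 and 22.4% at ranks 5001 to 11533. The promoter share went the other way, from 89.6% at the top to 42% at the bottom.

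**Figure D1:**
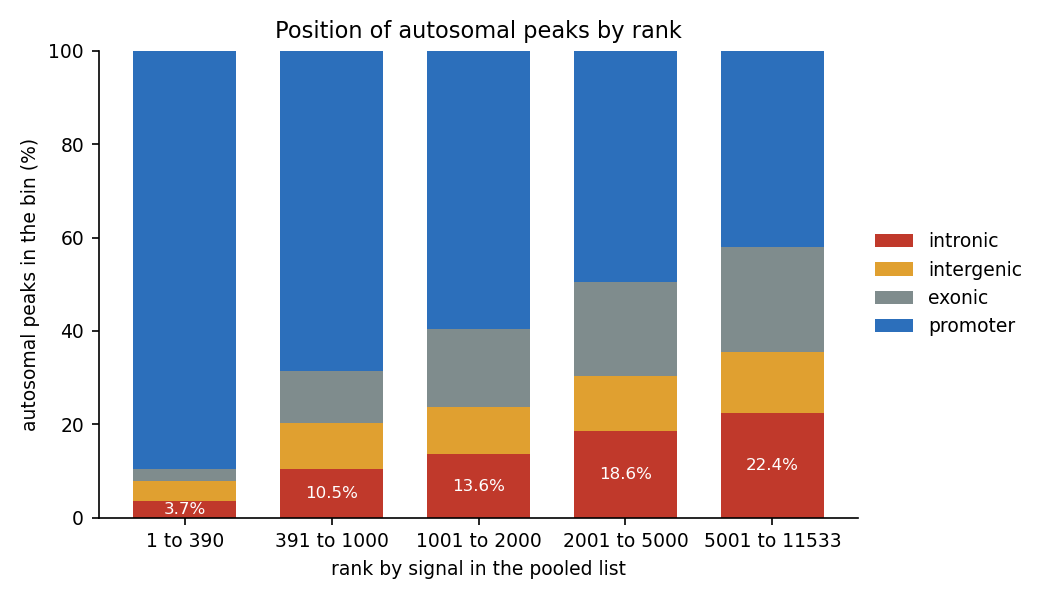
Stacked bars give the percent of autosomal peaks in 5 ranges of rank by signal in the pooled list that were intronic, intergenic, exonic or in a promoter window. The intronic share rises from 3.66% in the strongest range to 22.4% in the weakest.

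Few intronic peaks passed the authors' threshold on the irreproducible discovery rate, a measure built on how alike peaks rank in replicates. Of the 1898, 12 were in the thresholded list (0.632%, exact 95% Clopper-Pearson interval 0.327 to 1.10%), against 3.35% of all autosomal pooled peaks. The share was 6.18% in promoter windows (294 peaks, 5.51 to 6.90%), 1.19% between genes (14 peaks, 0.655 to 2.00%) and 0.406% in exons (8 peaks, 0.175 to 0.798%). These intervals treat peaks as independent and cover counting error only. The thresholded peaks are the 390 strongest of the pooled list, so this share and the rank share describe the same order. A kept peak need not rank alike in each replicate, as with gid-8 at 338, 13786 and 1559.

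Support by single replicates was counted where a replicate's summit, among as many strongest peaks of that replicate as the pooled list holds, lay inside the pooled peak. The pooled list comes from the same reads, so support is a description. Replicate 1 supported 42.7% of the intronic peaks, replicate 2 36.2% and replicate 3 34.9%. All 3 supported 76 peaks (4.0%, 3.17 to 4.99%), against 9.49% of all autosomal pooled peaks, while 465 had 2 replicates, 1002 had 1 and 355 had none. The share with all 3 was 14.4% for promoter, 6.57% for intergenic and 4.56% for exonic peaks. By range of rank the intronic share was 58.3% (7 of 12, 27.7 to 84.8%) at ranks 1 to 390, beside 93.5% for promoter peaks. Ranks were not matched within a range. After let-363, srbc-58 and nrde-1, the intronic peaks of this range ranked only 283 to 389. The intronic share was 45.5% (25 of 55, 32 to 59.4%) at ranks 391 to 1000, beside 54.8% for promoter peaks. At ranks 1001 to 2000 it was 17.9% (21 of 117), beside 22.3%. Over the same 3 ranges exonic peaks had 50% (4 of 8), 55.2% and 15.9%. Intergenic peaks had 85.7% (12 of 14), 57.7% and 20.7%. At ranks 5001 to 11533 only 4 of 1235 intronic peaks had all 3.

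The strongest intronic peak lay in let-363, which encodes the TOR kinase of nutrient signalling, on chromosome I from 5261593 to 5261916 in intron 29 of 31. Its signal was 214 and its pooled rank 38, and it ranked 55, 44 and 33 in replicates 1, 2 and 3. The nearest transcript start was 1942 bp away. It was the most even of the 12 in its ranks, and its summit held 1 copy of the 8-mer followed by GACAC.

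The next was in the first of 3 introns of srbc-58, a gene of the serpentine chemoreceptor family, on chromosome V from 775089 to 775518. It had a signal of 86.9 and ranked 122, 301 and 169 in the replicates. In nrde-1, a gene of the nuclear RNA interference pathway, a peak on chromosome III from 3716213 to 3716642 lay in intron 7 of 13 with a signal of 58.7. It ranked 152 in replicate 1, 2222 in replicate 2 and 442 in replicate 3. Both were thus among the strongest peaks of replicates 1 and 3, and nrde-1 was weaker in replicate 2.

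Of the remaining 9 thresholded peaks, 4 held no summit of replicate 3 at any rank. Y37D8A.2 (signal 44.6) ranked 189 and 1168 in replicates 1 and 2, and F17C11.22 (44.3), whose summit is also within the antisense RNA gene F17C11.20, ranked 180 and 6411. ZK1058.3 (41) ranked 403 and 201 and cdh-1 (36.3), a cadherin gene, ranked 247 and 298. The peak in gid-8 (38.5), whose product belongs to the GID ubiquitin ligase in other species, ranked 338 in replicate 1, 13786 in replicate 2 and 1559 in replicate 3.

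The other 4 were found in all 3 replicates. The lipase-related gene lips-10 (signal 41.9) ranked 857, 649 and 367, and egl-8 (37.7), which encodes phospholipase C beta, a regulator of synaptic transmission, ranked 466, 4110 and 671. The plexin gene plx-1 (36.8), a receptor of axon guidance, ranked 955, 403 and 2872. The nuclear receptor gene nhr-46 (35.6) ranked 1022, 504 and 1661, in a first intron of 7906 bp whose nearest exon lay 2606 bp from the summit. In lips-10 replicate 3 ranked best and in nhr-46 replicate 2, whereas in gid-8, nrde-1 and egl-8 replicate 1 did.

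**Figure D2:**
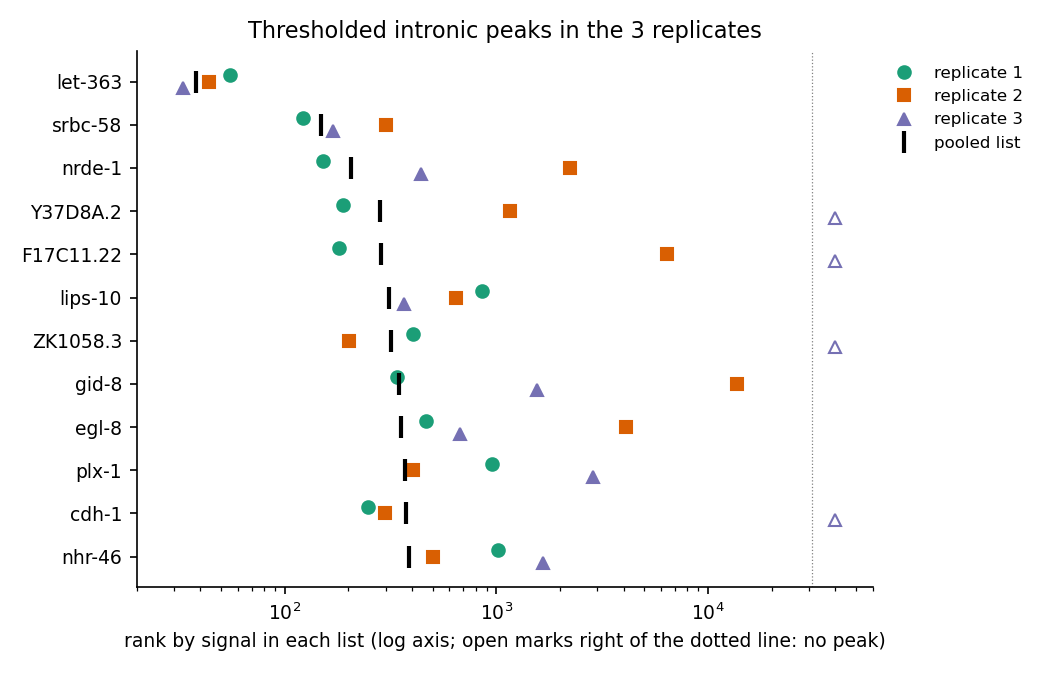
Each row is 1 of the 12 thresholded intronic peaks, named by its host gene, with its rank by signal in the pooled list (bar) and in replicates 1, 2 and 3 (circle, square, triangle) on a log axis. Open marks right of the dotted line stand for no peak, which applies to replicate 3 in Y37D8A.2, F17C11.22, ZK1058.3 and cdh-1, while let-363 lies at ranks 33 to 55 in every replicate.

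Just under the threshold stood 15 more named peaks with signals from 28.2 to 35. The strongest lay in nhr-70 (35), a nuclear receptor gene, with 6 copies of the 8-mer in 301 bp and ranks of 258, 2382 and 2896 in the replicates. W08E12.8 (34.6) ranked 333, 2402 and 785. A peak in unc-60 (33.6), which encodes the actin-severing protein cofilin, ranked 471, 512 and 9155. The gene dph-1 (32.7), whose product acts in the modification of elongation factor EF2 to diphthamide, ranked 289, 918 and 6641. The remaining hosts were grif-1, ZC404.15, gphr-1, nas-36, mca-3, W06B4.2, pqn-41, Y49E10.18, R148.3, T28F4.1 and pck-2. Among these, mca-3 encodes a calcium pump of the plasma membrane, nas-36 an astacin protease of the moult and pck-2 a phosphoenolpyruvate carboxykinase. The peak in pck-2 (28.2) ranked 1839, 18129 and 302 and so stood highest in replicate 3, whereas T28F4.1 (28.8) ranked 241 in replicate 1, 17362 in replicate 3 and had no summit of replicate 2.

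The 8-mer lay wholly inside the 101 bp summit window in 128 of 1898 intronic peaks (6.74%, 5.66 to 7.97%), beside 4.0% of all autosomal pooled peaks. In windows of equal length centred 300 bp to either side of the same summits it was present in 2.50% (95 of 3796). The share was 4.41% for promoter peaks with 0.935% in their flanks, 4.18% for intergenic peaks with 1.45%, and 0.254% for exonic peaks with 1.19%. Peaks with the 8-mer had a median signal of 16.1 and those without it 12.3.

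In all 5 ranges of rank the intronic share was above the promoter share, though ranks were not matched within a range. The intronic share was 75% (9 of 12, 42.8 to 94.5%) at ranks 1 to 390, against 42.9% of promoter peaks (37.1 to 48.7%). It was 41.8% (23 of 55, 28.7 to 55.9%) at ranks 391 to 1000, against 5.54% (3.42 to 8.43%). At ranks 1001 to 2000 it was 20.5% against 3.32%, and at ranks 2001 to 5000 7.72% against 1.87%. At ranks 5001 to 11533 the intronic share of 2.83% was close to that of its own flanks, 1.94%. Intergenic peaks lay between, with 57.1, 13.5 and 5.75% in the 3 strongest ranges. The flanks of intronic peaks also held the 8-mer more often than those of promoter peaks in all 5 ranges. From the strongest range to the weakest, intronic flanks held it in 16.7% (4 of 24), 2.73, 5.98, 2.71 and 1.94% of windows. Promoter flanks held it in 1.02, 1.385, 1.07, 0.937 and 0.821%. How much of the excess at summits goes with this higher flank share was not tested.

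**Figure D3:**
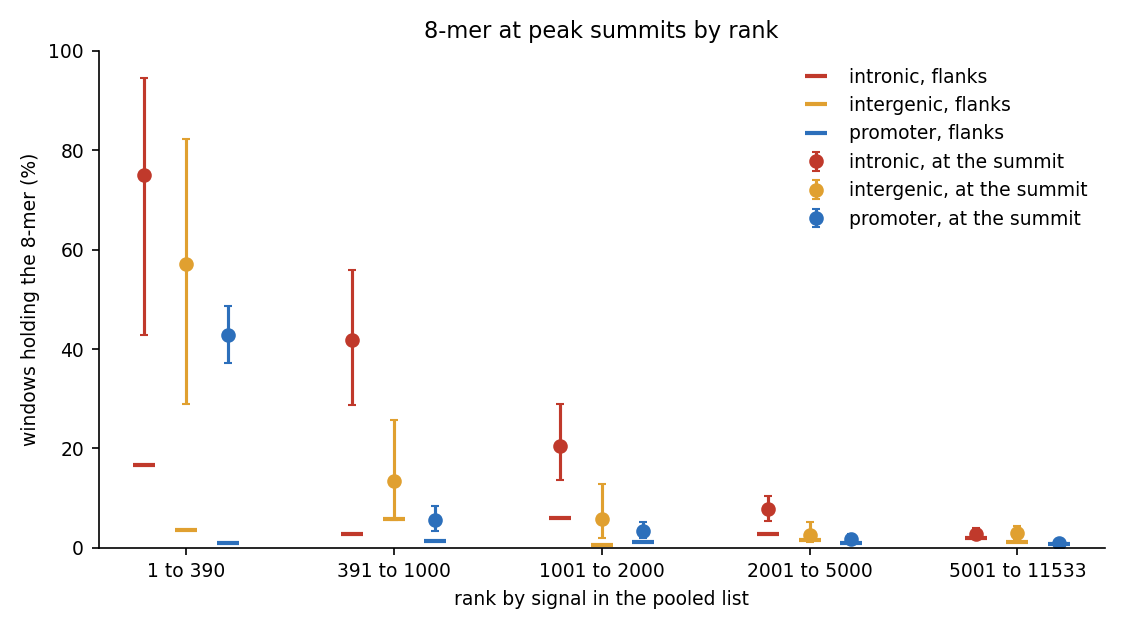
Points give the percent of 101 bp summit windows that hold the 8-mer in intronic, intergenic and promoter peaks, by range of rank in the pooled list, with exact 95% intervals, and dashes give windows 300 bp to the side. At ranks 391 to 1000 the intronic share is 41.8% and the promoter share 5.54%.

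Each replicate's own list was classed in the same way, using 5 times as many of its strongest peaks as the thresholded list holds. Intronic peaks made up 11.4, 13.3 and 12.4% of the autosomal peaks in replicates 1, 2 and 3 (mean 12.4 ± 0.969 SD, n = 3), and intergenic peaks 9.65, 7.79 and 10.4%. The difference was 1.73, 5.53 and 2.07 percentage points (mean 3.11 ± 2.10 SD, n = 3; exact sign-flip permutation test, two-sided, p = 0.25). That difference does not allow for the larger amount of intronic sequence. Per Mb the 3 replicates had 8.91, 10.4 and 9.79 intronic and 11.5, 9.33 and 12.5 intergenic peaks, so intronic peaks were the sparser class in replicates 1 and 3. The 8-mer was at the summit of 42 of 191 intronic peaks in replicate 1 (22%), 30 of 224 in replicate 2 (13.4%) and 22 of 210 in replicate 3 (10.5%). Their flanks held it in 5.76, 4.46 and 3.33% of windows, below the summits by a mean of 10.8 points ± 4.81 SD (n = 3). The 8-mer is known from earlier results on these peaks, so this contrast is a description and no support.

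The excess over promoter peaks was not shared by all replicates. Promoter peaks held the 8-mer in 13, 10.3 and 12.2%, so that the intronic share was higher by 8.96 and 3.07 points in replicates 1 and 2 and differed by -1.75 points in replicate 3 (mean 3.43 ± 5.36 SD, n = 3). Over intergenic peaks it was higher by 8.41, 5.0 and 1.91 points (n = 3), but among the 1000 strongest peaks by 11.2, 11.8 and 0.0 points (n = 3). These 8-mer differences are likewise descriptions. They and the difference in peak shares are among 12 differences computed at 3 list depths. The smallest p that 3 replicates allow is 0.25, so no adjusted value can pass 0.05. The larger excess in the pooled list went with replicate 1, whose shares were highest, and replicate 3 differs from the others in its recorded fragmentation and source. The part of either was not tested.

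**Figure D4:**
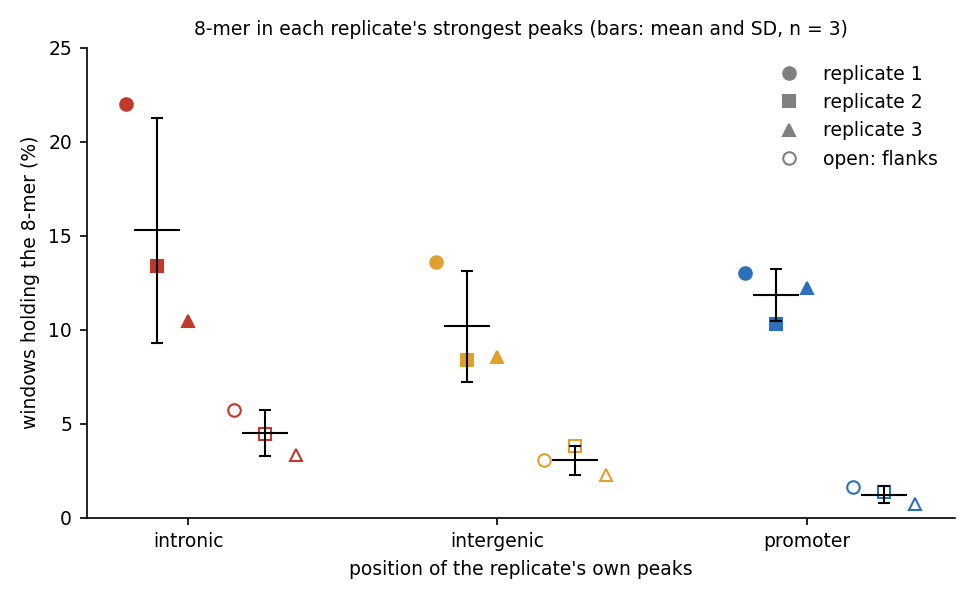
Filled marks give the percent of each replicate's own strongest intronic, intergenic and promoter peaks with the 8-mer at the summit, open marks the same for windows 300 bp to the side, and black bars the mean and SD of 3 replicates. Intronic shares spread from 10.5 to 22%, wider than the promoter shares of 10.3 to 13%.

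Support by single replicates was compared between peaks with and without the 8-mer. At ranks 1 to 1000, the 32 intronic peaks with the 8-mer were supported by replicates 1, 2 and 3 in 93.8, 75 and 65.6%, and the 35 without it in 88.6, 74.3 and 77.1%. At ranks 1001 to 2000, the 24 with it had 87.5, 62.5 and 41.7% and the 93 without it 67.7, 66.7 and 63.4%. At ranks 2001 to 5000, the 37 with it had 54.1, 48.6 and 45.9% and the 442 without it 52.5, 41.6 and 42.3%. At ranks 5001 to 11533, the 35 with it had 54.3, 37.1 and 28.6% and the 1200 without it 32.9, 28.7 and 27.6%. Replicate 3 thus supported fewer of the peaks with the 8-mer in the 2 stronger ranges and slightly more in the 2 weaker ones, and replicate 1 supported more of them in all 4.

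Intronic peaks with the 8-mer lay in repeats more often than the others. Lower-case letters in the RefSeq sequence mark repeats, and they made up on average 68.9% of the 101 bp in peaks with the 8-mer, 43.8% in peaks without it and 37.1% in the flanks of all intronic peaks. The mean at summits was 31.3% in promoter and 36% in intergenic peaks. Flanks of intronic peaks with the 8-mer averaged 46.5% and flanks of those without it 36.5%. Of all intronic copies of the 8-mer 78.7% were in lower case, so windows that hold it have more lower case partly by construction. A stricter measure, added after these values were seen, counted how often each stretch of 30 bases in the 101 bp occurs in the nuclear genome. No stretch occurred more than once in 87.6% of intronic peaks, 90.8% of those without the 8-mer, but 43% of those with it (55 of 128). Short reads from a repeated stretch fit several places, and how such reads were placed is not given in the sources used here.

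Among peaks without such repeats the excess over promoter peaks within ranges of rank was smaller. With no repeated stretch, the 8-mer was at 19.4% of intronic summits at ranks 391 to 1000 (7 of 36, 8.19 to 36%) and at 4.02% of promoter summits (13 of 323, 2.16 to 6.78%). At ranks 1001 to 2000 the shares were 12.9% (12 of 93, 6.85 to 21.5%) and 2.15% (10 of 466, 1.03 to 3.91%). Over all ranks the shares were 3.31% (55 of 1662, 2.50 to 4.29%) and 3.84% (170 of 4428, 3.29 to 4.45%). Intergenic peaks with no repeated stretch had 11.4% (5 of 44, 3.79 to 24.6%) at ranks 391 to 1000. They had 2.56% (2 of 78, 0.312 to 8.96%) at ranks 1001 to 2000 and 2.60% (28 of 1076, 1.74 to 3.74%) over all ranks. Their intervals overlap the intronic ones in each case. With a repeated stretch, 16 of 19 intronic peaks at ranks 391 to 1000 held the 8-mer. Of the 12 thresholded peaks, 11 had no repeated stretch, the exception being gid-8, with up to 15 copies of a stretch. By contrast W08E12.8, unc-60 and ZC404.15 held stretches found up to 265, 460 and 460 times.

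What followed the 8-mer also varied. In 70 of the 128 peaks a copy was followed by GACAC, in 21 others by TACAC, and in 37 by neither. Their median signals were 18.1, 20.3 and 13.7, and they included 6, 2 and 1 thresholded peaks. These forms were chosen after the sequences were seen. Single copies lay on the strand of the host gene in 47 of 100 peaks (36.9 to 57.2%), beside 53.5% of all intronic sites.

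The genome held 5907 autosomal copies of the 8-mer, of which 2632 were intronic. That is 122.7 per Mb of intronic sequence, against 64.6 in promoter windows, 66.7 between genes and 26.2 in exons, and 78.7% of the intronic copies were in lower case. A pooled summit lay within 50 bp of 6.69% of the intronic copies (176, 5.76 to 7.71%) and of 12% of those in promoter windows (223, 10.5 to 13.5%). A thresholded summit lay there for 0.532% (14 copies) and 6.98% (130 copies). Intronic copies followed by GACAC or TACAC had a pooled summit in 8.30% (892 copies) and 11.1% (253 copies) and the rest in 4.98%. The corresponding shares in promoter windows were 15.6, 21.7 and 9.61%. Most copies in introns thus had no pooled summit within 50 bp. Copies elsewhere inside a peak were not counted. Of intronic copies followed by GACAC 99.9% were in lower case, of those followed by TACAC 96.8% and of the rest 62.95%. How much of the difference between these forms goes with repeats was not tested.

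Copies no more than 100 bp apart were joined to loci. An intronic locus with 1 copy had a pooled summit in 4.75% (83 of 1749, 3.80 to 5.85%), and one with 2 copies on opposite strands in 12.3% (18 of 146, 7.47 to 18.8%). Intronic loci with 2 copies on 1 strand, and at most 3 in all, had one in 4.35% (2 of 46, 0.531 to 14.8%). Loci with 3 or more copies on 1 strand, with a median of 7 copies and at most 72, had one in 45% (18 of 40, 29.3 to 61.5%). Such arrays had a summit in 45% between genes (9 of 20) and 11.8% in promoter windows (2 of 17, 1.46 to 36.4%). In promoter windows a single copy had a summit in 12.8% of loci and a pair on opposite strands in 14.1%. Between genes these shares were 5.26 and 6.67%. Counted from the peaks, 25 intronic peaks held an array in the 301 bp centred on the summit, and 2 of them were thresholded. Their arrays had a median of 6 copies and a median spacing of 22 bp. More copies give more chances that a summit lies near one, and that part was not tested.

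**Figure D5:**
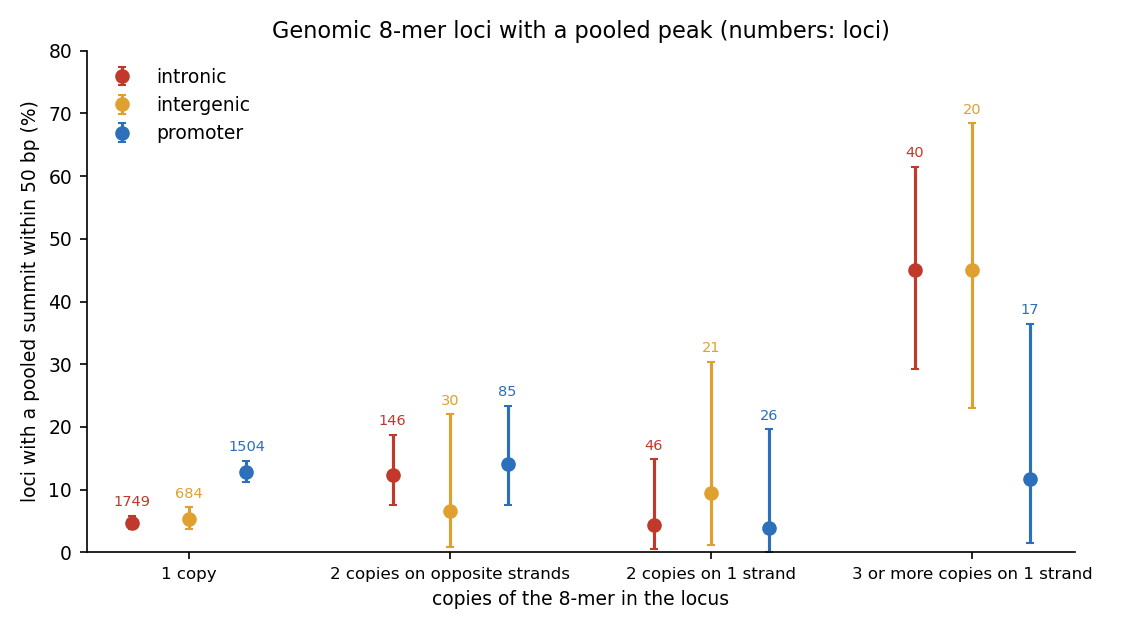
Points give the percent of genomic 8-mer loci with a pooled summit within 50 bp, with exact 95% intervals and the number of loci above each, by the copies and strands in the locus. Loci with 3 or more copies on 1 strand reach 45% in introns and between genes, and 11.8% in promoter windows.

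Within their genes intronic peaks were spread over all introns. First introns held 406 (21.4%, 19.6 to 23.3%), while they made up 20.2% of the intronic sequence outside promoter windows, and last introns held 15.6%. The median distance was 1422 bp to the nearest transcript start of any gene, 2870 bp to the start of the host and 218 bp to the nearest exon, in introns of a median 1020 bp. Protein-coding genes hosted 1873 of the peaks (98.7%). They numbered 1340, 9.26% of the 14479 with intronic sequence outside promoter windows, and 312 of them had more than 1 peak. A stronger pooled peak overlapped 145 of the intronic peaks, in 20 cases a promoter peak. A further 993 intronic summits lay inside a promoter window and so fell outside the rule, and 28 of them were thresholded.

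The edges of the window were narrow steps. The nearest peaks kept upstream were in cht-6 (1001 bp from a start, signal 10.8) and pbo-1 (1004 bp, 12.5), and downstream in C18D11.10 and sms-3 (both 201 bp, 12.4 and 11.6). The nearest left out lay in R12E2.11 (998 bp, 23.6), lst-5 (997 bp, 17.9), ttx-7 (200 bp, 11.8) and nish-1 (198 bp, 10.8).

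Genes with the most intronic peaks had long introns. pqn-41, whose product is needed for the death of the linker cell, held 9 in 20425 bp of intron, ercc-1, a DNA excision repair gene, 8 in 9507 bp, and ncl-1, a regulator of nucleolus size, 7 in 10058 bp. The FOXO factor gene daf-16 of insulin signalling had 7 in 14818 bp, and the kinase gene mnk-1 7 in 5347 bp. hmr-1, unc-43, kin-1 and rbf-1 also had 7, with weaker strongest peaks. Per 10 kb of this intron the first 5 genes had 4.41, 8.415, 6.96, 4.72 and 13.1 peaks, and the other 4 from 1.70 to 6.12. All 9 were thus denser than intronic sequence at large, with its 88.5 peaks per Mb. They were picked for their counts, which favours high densities. None of the peaks in these 9 genes held the 8-mer, and the highest signals in the first 5 were 29.6, 20.1, 28.1, 27.6 and 24.1.

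Host genes were counted in 12 lists by symbol, beside 9.26% of all protein-coding genes with eligible intron and 89.5 peaks per Mb of it. Adhesion and axon guidance genes were hosts in 20 of 55 (36.4%, 23.8 to 50.4%), muscle genes in 13 of 41 (31.7%), synapse and secretion genes in 17 of 65 (26.2%) and transcription factors other than homeobox and nuclear receptor genes in 30 of 138 (21.7%, 15.2 to 29.6%). Signalling genes were hosts in 28 of 152 (18.4%), ion channel genes in 34 of 188 (18.1%), chromatin genes in 16 of 108 (14.8%), splicing and RNA-binding genes in 9 of 87 (10.3%) and homeobox genes in 7 of 69 (10.1%). Ribosomal protein genes were hosts in 3 of 26, nuclear receptors in 15 of 241 (6.22%) and collagens in 2 of 93 (2.15%).

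The lists differed in the length of eligible intron per gene, a median of 615 bp over all genes, 3653 bp for adhesion and 98 bp for collagen genes. Per Mb of intron the adhesion genes had 102 peaks, muscle genes 160, the other transcription factors 166, signalling genes 120 and ion channels 77.9. Chromatin genes had 68.3 per Mb, splicing and RNA-binding genes 99.3, nuclear receptors 77.2, collagens 63.9 and homeobox genes 63. Synapse genes had 38 peaks in 330 kb, and ribosomal protein genes had 3 in 3.13 kb, which comes to 959 per Mb from very little sequence. The 54 peaks in the other transcription factors included none with the 8-mer, and neither did the 44 in ion channel genes, beside 6.78% of the peaks in all protein-coding hosts (127 of 1873). Signalling genes had it in 6 of 58 peaks and adhesion genes in 4 of 36.

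Some of the strongest peaks of these lists are given above: nuclear receptors were led by nhr-46 and nhr-70, and adhesion genes by plx-1 and cdh-1. In the other transcription factors they lay in daf-16 (27.6) and the heterochronic zinc finger gene lin-29 (21.3). In the list of muscle genes, made by symbol, they lay in unc-60 (33.6) and act-5 (24.8), though act-5 is an actin of the intestine. In synapse genes they lay in egl-8 (37.7) and unc-116 (18.6), the kinesin heavy chain. In signalling genes they lay in let-363 and the guanylyl cyclase gcy-28 (27). Ion channels were led by lgc-31 (23.2) and the potassium channel twk-4 (20.9), and chromatin genes by taf-4 (19.9) and zfp-1 (16.3). Splicing and RNA-binding genes were led by hrpf-1 (19.1) and larp-1 (19). The ribosomal protein genes rpl-3 (25.3) and rps-14 (14.2), the homeobox genes lin-11 (14.3) and ceh-92 (13.1) and the collagens col-83 (12.2) and col-159 (10.5) followed. The peaks in act-5, gcy-28, rpl-3 and taf-4 were supported by all 3 replicates, and those in lin-11 and col-159 by none.

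By chromosome the density of intronic peaks ran from 70.1 per Mb on V (322 peaks) through 84.4 on IV (368), 90.8 on II (323) and 96.6 on I (456) to 102 on III (429). The X chromosome, outside the rule, had 71.4 per Mb (288 peaks), and 1 of these held the 8-mer (0.347%, 0.00879 to 1.92%), while its introns held 26.8 copies per Mb against 95.3 to 146 on the autosomes. Between 4.89% (IV) and 8.07% (V) of autosomal intronic peaks held it. The central 33.3% of each autosome, a division chosen after the values were seen, contained 29.7% of the intronic peaks and 25% of the intronic sequence. It contained 12 of the 128 peaks with the 8-mer (9.38%, 4.94 to 15.8%) and 31.2% of those without it, so the peaks with the 8-mer lay mostly outside the centres. Of these 12, 5 were on I and 7 on V, with none on II, III or IV. The share of intronic 8-mer copies in the centres was not counted, so whether the peaks follow the copies was not tested.

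The gene of the tagged protein, rcat-1, held 1 of these peaks, at chrIV:253920-254349, with a signal of 26, support from 1 replicate and no 8-mer. Within 20 kb of the gene lay 4 intronic peaks, and the strongest pooled peak of all (signal 901) was at its promoter. The transgene carries this locus, so extra copies and binding cannot be told apart there.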

How the data were processed

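The peak lists were deposited by the authors. Per the deposited descriptions, calling was done per replicate and once on all 3 alignments together, each against 1 control alignment (not analysed here), and a thresholded list was derived by the irreproducible discovery rate. Its cutoff, the aligner and the caller were not given in the sources used here. Each deposited signal is the peak strength from the authors' caller and was compared within a list only. The deposited summit offset, another value of each peak, gave its summit.

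Positions used ce11 lists with Ensembl release 115 (31563 genes, 15363 piRNA genes left out) and the RefSeq sequence of WBcel235. Python 3.11.15 with numpy 2.4.6, pandas 2.3.3, scipy 1.17.1 and matplotlib 3.10.9 were used. Shares carry exact 95% Clopper-Pearson intervals. The functions were tested on simulated data.

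Named are the thresholded intronic peaks, the 15 strongest others, the 5 hosts with most, the 2 strongest hosts of each of 12 gene lists and the 2 peaks nearest each window edge. The peaks, gene lists and tests were chosen with earlier results of these data known. Alternatives were other windows, gene sets, support rules, 8-mer windows and left-out replicates, with 5 added after seeing the data.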

Additional observations from a re-analysis of the deposited data

How the results depend on the processing

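Of 72 alternatives over 7 results, 51 left the value within its error or 1.5 times its count and 21 moved it. The mean intronic minus intergenic difference kept its sign, while the density ratio crossed 1. Support by all 3 replicates was 1.53% with 50% as many replicate peaks, 17.4% with all of them, 9.01% with an overlap of 1 bp, and 10.2 to 13.3% when each replicate was left out and both others were asked for, a weaker demand by construction. The 8-mer share was 3.53% within 25 bp of the summit, 10.4% within 100 bp and 11.8% for CGTAAA alone. With the stronger 50% of the pooled peaks the thresholded share was 1.53%, support 9.29%, the 8-mer share 12.5% and the density ratio to intergenic sequence 0.978, below rather than above 1. With protein-coding genes only, the thresholded share was 1.23%, support 6.09% and the density ratio 1.17. The share in first introns was 19.4% with a window reaching 2000 bp upstream and 13.3% with one reaching 1000 bp downstream, which removes first introns by construction. Among alternatives chosen after seeing the data, leaving out peaks with 50% or more of lower-case letters left 1090 peaks with an 8-mer share of 3.03%, and leaving out those with a repeated stretch of 30 bases gave 3.31%. For moves with no reason given, the cause was not tested. No paired analysis was possible because there is 1 group of samples and so no pair of groups; the differences in the report pair position classes within a replicate. Without read counts, depth sets no limit that can be stated.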
